A study of Homo sapiens with 3 samples.

Results

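Levels of the EGF receptor family and its ligands were followed across RNA-seq libraries labelled as HepG2, a human hepatocellular carcinoma line. The set was written as a list of 10 gene symbols, the receptors EGFR, ERBB2, ERBB3 and ERBB4 and the ligands AREG, EREG, HBEGF, TGFA, BTC and EGF, and all 10 were found by symbol among the 25270 rows of the deposited tables. Of these, 6 had a mean of at least 1 FPKM (fragments scaled to transcript length and to sequencing depth) over the libraries, and every count is over all 10.

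The study compared parental HepG2 cells (HepG2/wild, no treatment), HepG2/metR cells, which came through more than 5 months of metformin, an inhibitor of the mitochondrial respiratory chain, and HepG2/metR cells kept for 24 h with oxamate at 40 mM, which blocks lactate dehydrogenase. The question was which genes follow lactate in a culture with high glycolysis. Each group is 1 library of total RNA, 3 in all, so no difference has a replicate check and no p-value is given. All cells were grown in the same serum-containing medium, and the labels do not say whether metformin was present at harvest. HepG2/metR is a single selected culture, so metformin exposure and other differences between the cultures cannot be told apart. The HepG2/metR library enters both comparisons, which are therefore not independent.

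The receptors of this family sit in the plasma membrane and signal as pairs once a ligand binds, mainly through the RAS-ERK and PI3K-AKT pathways. ERBB2 has no known ligand of its own and ERBB3 has little kinase activity, so both work through partners. The ligands are made as membrane-bound precursors, which metalloproteases release, and in liver EGFR signalling is known for its part in regeneration.

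The labelled cell type was checked against marker genes first. All 10 hepatocyte markers were more than 10-fold lower in HepG2/metR than in HepG2/wild. Their summed level was 32040 FPKM in HepG2/wild, 13.97 in HepG2/metR and 11.2 with oxamate. APOA2 was the most abundant of them in HepG2/wild, at 11976 FPKM, and stood at 0.407 FPKM in HepG2/metR. The transcription factor HNF4A had 68.7, 0.0156 and 0.0153 FPKM in the 3 libraries in that order, and TTR, an abundant plasma protein, was listed at 0 in HepG2/metR and with oxamate. Of the 10 markers, 8 were under 1 FPKM in HepG2/metR and 8 with oxamate. SERPINA1, at 1709, 11.2 and 7.10 FPKM, and FGB, at 163, 1.30 and 2.26, were reduced but still present. With oxamate SERPINA1 was past 1.5-fold lower, at -0.59, but not under median-of-ratios factors (-0.58) or equal totals (-0.43). FGB, at 0.50, passed 1.5-fold higher with a pseudocount of 0.1 (0.76), with none (0.80) and under equal totals (0.62). Among the markers under 1 FPKM, AFP (1.04) and APOB (0.71) also passed it higher with a pseudocount of 0.1, as did APOA1 (1.57). Without a pseudocount AFP was at 1.31 and APOB at 1.88. Of the 5 epithelial markers, EPCAM fell from 102 to 0.0900 FPKM, CDH1 from 5.92 to 0.0365 and KRT19 from 213.5 to 12.3, while the keratins KRT8 and KRT18 were at 897 and 787 FPKM in HepG2/metR. The epithelial sums were 2006, 1696 and 1280 FPKM. The 7 fibroblast markers summed to 6.49, 1583 and 1155 FPKM. VIM, at 1.23, 1576 and 1140 FPKM, was nearly all of the sum in both HepG2/metR libraries but not in HepG2/wild, where PDGFRB was the most abundant. LUM had 0.172, 3.25 and 6.69 FPKM, past the limits used here in both comparisons, and PDGFRB had 3.43, 3.66 and 7.26 FPKM, past 1.5-fold with oxamate. COL1A1, COL1A2, COL3A1 and DCN were each under 1 FPKM in both HepG2/metR libraries. The 4 endothelial markers summed to at most 0.328 FPKM in any library. Of the 4 leukocyte markers CD68 alone was above 1 FPKM, at 35.7, 43.0 and 31.0. By these markers neither HepG2/metR library kept the hepatocyte profile of HepG2/wild. The name HepG2 for both is taken from the labels, and their identity was not tested. What part these marker shifts have in the differences of the receptor family was not tested, and in bulk RNA fewer cells of a type and less RNA per cell cannot be told apart.

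Among the receptors the order of levels turned over between the cultures. ERBB3 led in HepG2/wild, followed by ERBB2 and then EGFR, whereas EGFR led in HepG2/metR and with oxamate, followed by ERBB2 and then ERBB3. EGFR, the receptor for EGF, TGFA, AREG and related ligands, had 2.66 FPKM in HepG2/wild, 29.1 in HepG2/metR and 42.5 with oxamate. It was thus low in the parental library and high in both others. On the deposited log2(FPKM + 1) scale, which understates changes of low genes, EGFR rose by 3.04 in HepG2/metR (8.23-fold), and 395 of the 12210 genes kept rose as much or more, EGFR included. The plain FPKM ratio of EGFR was 10.9. ERBB3, the partner that recruits PI3K, had 53.3, 6.85 and 8.90 FPKM in the same order. Its level was high in HepG2/wild alone, with a difference of -2.79 on the log2 scale between HepG2/metR and HepG2/wild (6.92-fold lower), and 615 of the genes kept fell as much or more. ERBB2, the favoured partner of the other receptors, had 33.9, 24.2 and 27.7 FPKM, so its difference of -0.47 did not reach 2-fold. ERBB4 was listed at 0 in HepG2/wild and had 0.00574 FPKM in HepG2/metR and 0.0224 with oxamate.

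Summed over the 4 receptors, the level was 89.9 FPKM in HepG2/wild, 60.1 in HepG2/metR and 79.1 with oxamate. EGFR made up 2.96% of that sum in HepG2/wild, 48.4% in HepG2/metR and 53.7% with oxamate. The share of ERBB3 went the other way, from 59.3% to 11.4% and 11.2%, while ERBB2 held 37.7%, 40.2% and 35.0%. ERBB3 was 20.0 times EGFR in HepG2/wild, and EGFR was 4.26 times ERBB3 in HepG2/metR. ERBB2 and EGFR, neighbours in the order in HepG2/metR, stood at a ratio of 1.21 (EGFR over ERBB2), and with 1 library a group no spread shows whether they differ. These shares do not depend on how the libraries are scaled to each other.

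**Figure D1:**
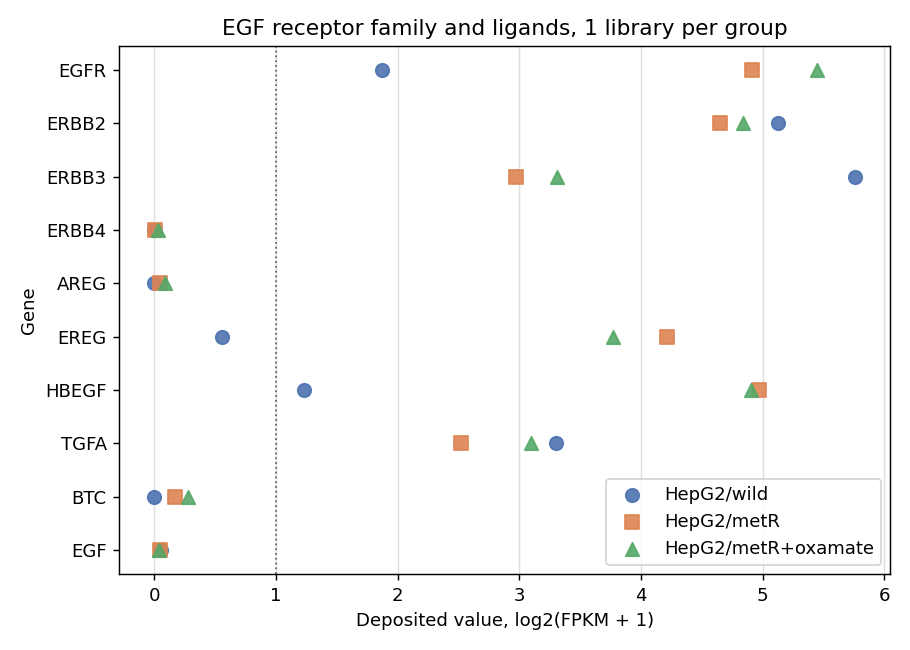
Deposited log2(FPKM + 1) value (x axis) of each of the 10 genes (y axis) in HepG2/wild (circles), HepG2/metR (squares) and HepG2/metR+oxamate (triangles), 1 library each, with a dotted line at 1 FPKM. EGFR, EREG and HBEGF lie far to the right of their parental value in both HepG2/metR libraries, ERBB3 lies to the left, and ERBB4, AREG, BTC and EGF lie near 0 throughout.

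Among the ligands, HBEGF and EREG were high in both HepG2/metR libraries and low in HepG2/wild. HBEGF, a heparin-binding ligand of EGFR and ERBB4, had 1.35 FPKM in HepG2/wild, 30.3 in HepG2/metR and 29.0 with oxamate. EREG, epiregulin, which also binds EGFR and ERBB4, had 0.470, 17.6 and 12.7 FPKM. HBEGF rose by 3.74 (13.3-fold) in HepG2/metR on the log2(FPKM + 1) scale, a rise matched or passed by 255 of the genes kept, itself included. For EREG the rise was 3.66 (12.6-fold), matched or passed by 274 genes, and the plain FPKM ratio was 37.4, since its parental level lies under the pseudocount. The plain FPKM ratio of HBEGF was 22.4. Without a pseudocount EREG thus rose more than HBEGF, by 5.22 against 4.49. TGFA, the EGFR ligand with the highest level in HepG2/wild, had 8.86 FPKM there, 4.75 in HepG2/metR and 7.54 with oxamate, a difference of -0.78 between the first 2 that did not reach 2-fold.

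The other 3 ligands were under 1 FPKM in all 3 libraries. AREG, amphiregulin, was listed at 0 in HepG2/wild and had 0.0320 and 0.0628 FPKM in HepG2/metR and with oxamate. BTC, betacellulin, was listed at 0 in HepG2/wild and had 0.122 and 0.210 FPKM in the others. EGF itself had 0.0388, 0.0320 and 0.0250 FPKM. A gene under 1 FPKM in both libraries cannot reach 2-fold on this scale, so for these genes the counts say nothing about a change. The depth in reads is unknown, but the relative depth, read from the most frequent ratio of low values, was 1.21 for HepG2/metR and 1.24 for the oxamate library, with HepG2/wild as 1. How many fragments stand behind values this low is not known, and their order was not read. AREGB, a near-identical copy of AREG in older annotation, was not analysed here, and the AREG level is uncertain because such copies can share reads.

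Summed over the 6 ligands, the level was 10.7 FPKM in HepG2/wild, 52.8 in HepG2/metR and 49.5 with oxamate. TGFA made up 82.6% of the sum in HepG2/wild, and 8.98% and 15.2% in the others. HBEGF made up 12.6%, 57.4% and 58.6%, and EREG 4.39%, 33.3% and 25.6%. TGFA was 6.55 times HBEGF in HepG2/wild, while HBEGF was 6.39 times TGFA in HepG2/metR and 3.84 times with oxamate. The order was therefore TGFA, HBEGF, EREG in HepG2/wild and HBEGF, EREG, TGFA in both other libraries.

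**Figure D2:**
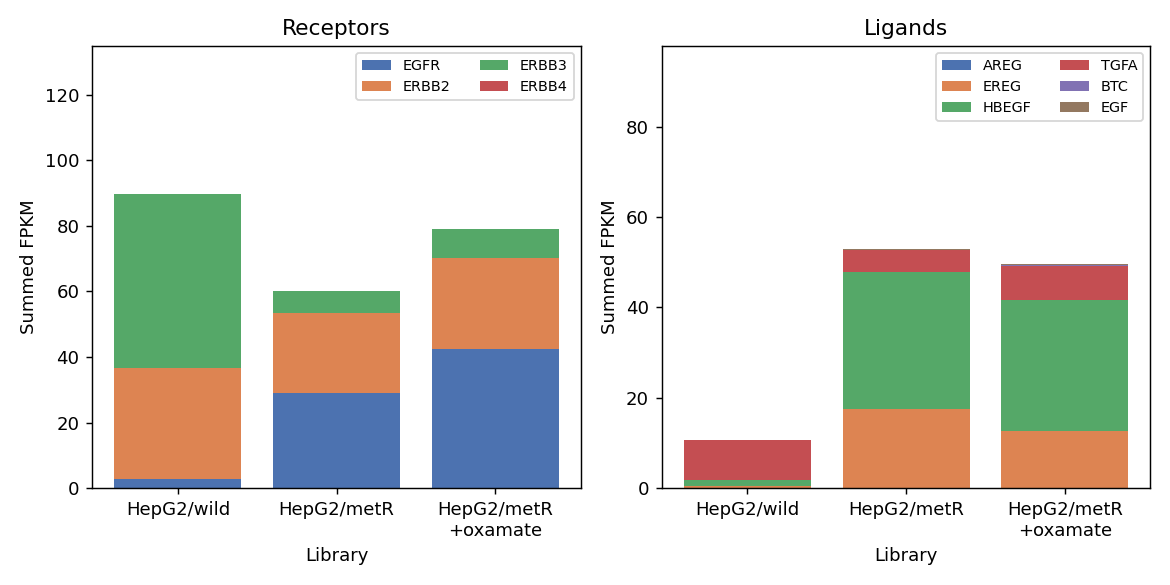
Stacked bars of FPKM (y axis, from 0) in each library (x axis), with the 4 receptors in the left panel and the 6 ligands in the right panel. The receptor bar is mostly ERBB3 and ERBB2 in HepG2/wild and mostly EGFR and ERBB2 in the others, and the ligand bar goes from 10.7 FPKM, mostly TGFA, to 52.8 and 49.5, mostly HBEGF and EREG.

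Counted together, 3 of the 10 genes (EGFR, EREG and HBEGF) passed 2-fold upward from HepG2/wild to HepG2/metR, as did 16.6% of the 12210 genes kept. ERBB3 alone, 1 of 10, was at least 2-fold lower, where 17.6% of genes kept were. The same 4 genes passed 2-fold in the same direction under every pseudocount and scaling tried, although BTC also passed it with a pseudocount of 0.1, at 1.15. Without a pseudocount 7 of the 10 had a value, since ERBB4, AREG and BTC were listed at 0 in HepG2/wild. Upper-quartile scaling moved the median of all genes kept by 0.13 in this comparison. Relative to that shift EGFR was at 3.03, EREG at 3.61, HBEGF at 3.71 and ERBB3 at -2.78. The 10 genes include 4 too low to pass, whereas these shares are over genes kept. Over all 25270 rows, with no filter on low values, the shares were 8.31% higher and 9.60% lower. Nothing particular to the family is read from the counts.

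With oxamate none of the 10 genes reached 1.5-fold on the deposited scale, with its pseudocount of 1. Among all genes kept, 4.3% were at least 1.5-fold higher and 3.82% at least 1.5-fold lower. TGFA came nearest, at 0.57 on the log2 scale against a limit of 0.58, and EGFR followed at 0.53. With a pseudocount of 0.1 TGFA passed, at 0.66, and with none 4 genes passed, TGFA at 0.67 and, all under 1 FPKM, ERBB4 at 1.97, AREG at 0.97 and BTC at 0.78. ERBB3 was at 0.34, ERBB2 at 0.19, HBEGF at -0.06 and EREG at -0.44. The sign for HBEGF turned when each library was scaled to the same FPKM total, where it was 0.11, and that of the other 5 was the same in all settings tried. The summed FPKM of the libraries differed, at 562382, 534646 and 473773, and scaling to equal totals moved the median of all genes kept by 0.14 upward with oxamate. Under that scaling EGFR, at 0.70, and TGFA, at 0.72, passed 1.5-fold, but relative to the shift they were at 0.56 and 0.58, both short of the limit. The split of all genes past 1.5-fold also moved, from 525 higher and 466 lower to 1184 higher and 192 lower. It was 1018 and 607 with a pseudocount of 0.1, 1111 and 622 with none, and 271 and 403 among genes of at least 5 FPKM.

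Genes past 2-fold upward in HepG2/metR and at least 1.5-fold lower with oxamate, the pattern the study sought, made up 0.958% of genes kept (117 of 12210), and 0 of the 10 genes showed it. Of the 3 that rose in HepG2/metR, EGFR was not lower with oxamate, and EREG and HBEGF were at -0.44 and -0.06. Against HepG2/wild the oxamate library was still 3.57 higher for EGFR, 3.22 for EREG and 3.67 for HBEGF, and lower for ERBB3, at -2.46, all on the log2 scale.

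**Figure D3:**
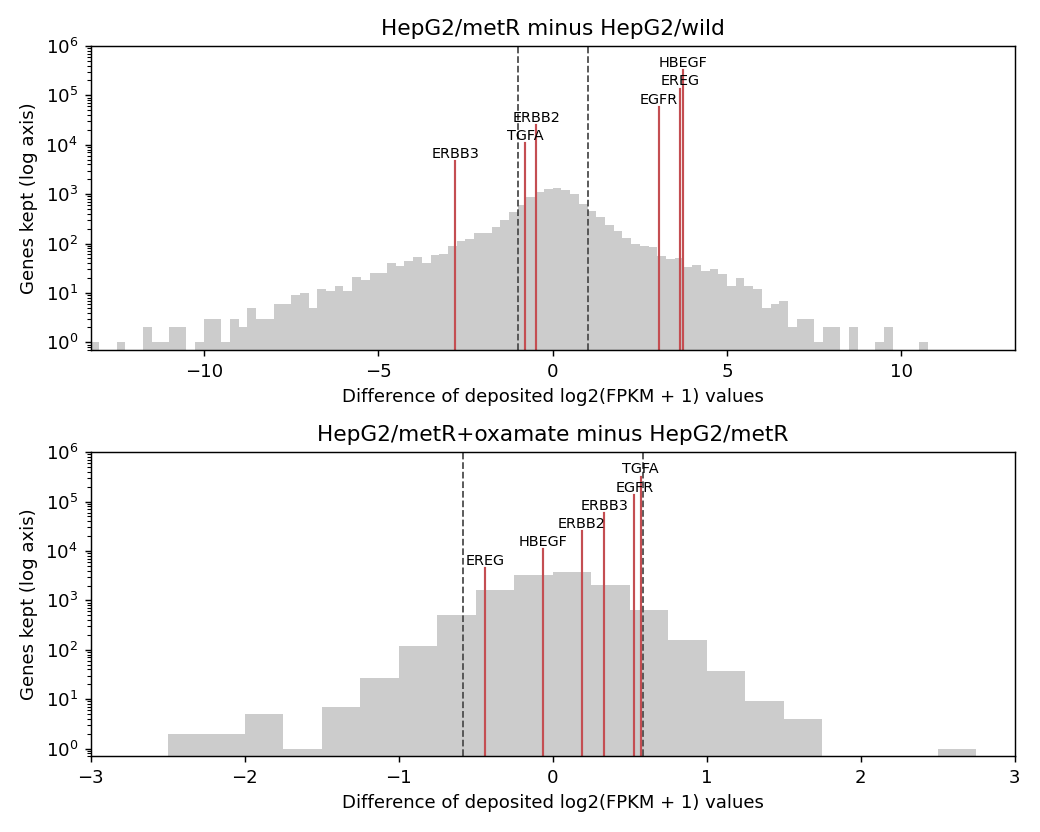
Histograms of the differences in log2(FPKM + 1) (x axis) of the 12210 genes kept (y axis, log scale) for HepG2/metR minus HepG2/wild (top) and oxamate minus HepG2/metR (bottom), with dashed lines at 2-fold and 1.5-fold and red lines at the 6 genes of the family that were kept; the bottom axis ends at -3 and 3, and genes beyond it are not drawn. EGFR, EREG, HBEGF and ERBB3 lie outside the dashed lines at the top, and none lies outside them at the bottom.

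**Figure D4:**
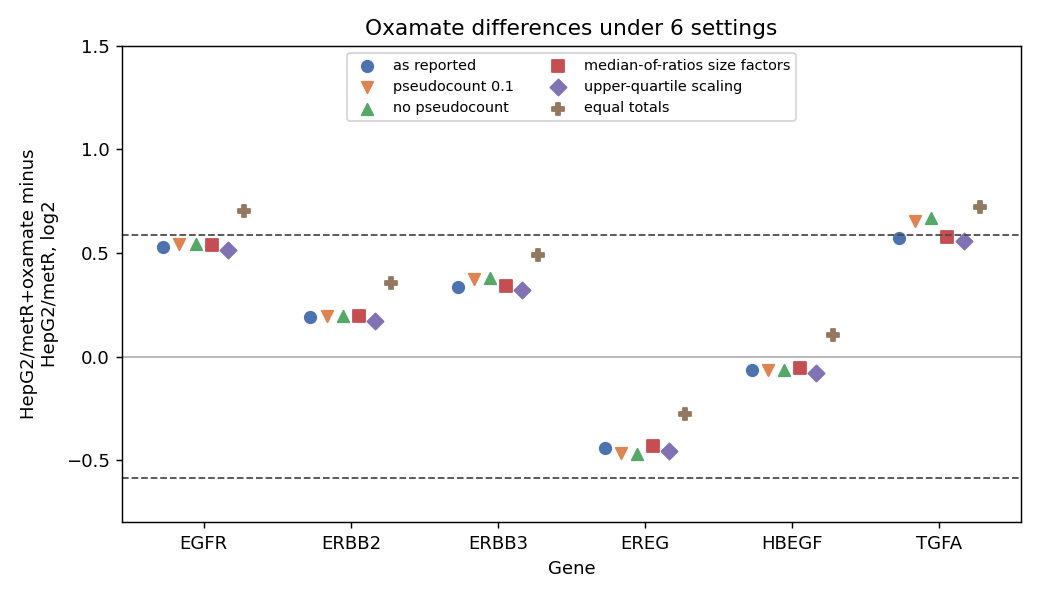
Difference between the oxamate and HepG2/metR libraries on the log2 scale (y axis) for the 6 genes kept (x axis), under the deposited scaling and 5 other pseudocounts or scalings (symbols), with dashed lines at 1.5-fold. TGFA crosses the upper line under 3 of them and EGFR under 1, equal totals, and the sign of HBEGF turns under equal totals.

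EREG lies on chromosome 4 in a cluster with EPGN, AREG and BTC, in the order EPGN, EREG, AREG, BTC in the RefSeq gene table. EREG was the one gene of the cluster listed above 1 FPKM, although the level of AREG is uncertain, as stated above. EPGN, epigen, another EGFR ligand, was listed at 0 in HepG2/wild and had 0.0293 and 0.0133 FPKM in the others. On the BTC side the next gene, PARM1, had 0.101, 1.60 and 1.67 FPKM, and its difference of 1.24 passed 2-fold in HepG2/metR. Beyond EPGN, MTHFD2L had 1.43, 0.849 and 0.431 FPKM and passed neither limit, although it was 1.5-fold lower with oxamate under a pseudocount of 0.1 or none. The chemokine gene CXCL2 beyond it had 0.0831, 5.40 and 1.39 FPKM, with differences of 2.56 and -1.42, and CXCL3 had 0.0438, 0.979 and 0.713 FPKM. The CXCL3 difference in HepG2/metR was 0.92, and it passed 2-fold with a pseudocount of 0.1 (2.91) or none (4.48). On the far side of PARM1, RCHY1 had 7.82, 5.59 and 5.28 FPKM and THAP6 3.44, 4.28 and 4.73. EPGN, AREG and BTC, under 1 FPKM in all 3 libraries, could not reach 2-fold on this scale, whatever their change. With a pseudocount of 0.1 BTC was at 1.15 in HepG2/metR. Whether EREG rose alone in the cluster is therefore not shown.

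Promoter windows were read for the 3 genes that rose together, EGFR, EREG and HBEGF, and for AREG as a neighbour of EREG. The listed AREG values were low, but its level is uncertain because the near-identical copy AREGB can share its reads. AREG is therefore not read as a silent contrast to EREG. RefSeq windows on GRCh38.p14 matched 9 of the 10 genes by symbol, ERBB3 being the exception, and 250 bases before the start were used. The build differs from that of the expression tables, so the coordinates serve for the windows alone. Capitals mark matches, on either strand, to AP-1 (TGANTCA), CRE (TGACGTCA), the GC box (GGGCGG) or E2F (TTTNNCGC). The EGFR window lies at chr7:55018767-55019016 (+ strand), the EREG window at chr4:74364895-74365144 (+), the HBEGF window at chr5:140346604-140346853 (- strand) and the AREG window at chr4:74444886-74445135 (+).
EGFR: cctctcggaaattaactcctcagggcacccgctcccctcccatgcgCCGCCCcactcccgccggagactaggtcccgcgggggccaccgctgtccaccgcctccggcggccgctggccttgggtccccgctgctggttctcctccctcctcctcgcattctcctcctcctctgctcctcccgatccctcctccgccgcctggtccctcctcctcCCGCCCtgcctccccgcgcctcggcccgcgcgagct
EREG: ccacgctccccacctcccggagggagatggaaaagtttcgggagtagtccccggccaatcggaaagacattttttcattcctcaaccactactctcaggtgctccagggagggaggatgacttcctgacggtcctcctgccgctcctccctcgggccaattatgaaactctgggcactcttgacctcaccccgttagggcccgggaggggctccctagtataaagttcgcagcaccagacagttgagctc
HBEGF: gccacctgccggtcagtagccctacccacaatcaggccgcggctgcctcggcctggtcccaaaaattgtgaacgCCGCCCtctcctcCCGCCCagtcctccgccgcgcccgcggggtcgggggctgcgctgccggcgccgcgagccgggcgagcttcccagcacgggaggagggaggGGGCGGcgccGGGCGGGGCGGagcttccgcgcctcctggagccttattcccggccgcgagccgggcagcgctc
AREG: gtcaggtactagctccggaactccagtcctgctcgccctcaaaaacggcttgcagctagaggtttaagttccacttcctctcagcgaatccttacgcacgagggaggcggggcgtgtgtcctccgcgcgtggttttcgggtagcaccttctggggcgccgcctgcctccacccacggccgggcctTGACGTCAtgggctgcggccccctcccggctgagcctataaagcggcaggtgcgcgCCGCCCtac

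HBEGF held 5 matches to the GC box, 2 of which overlap by 1 base, and EGFR held 2. The EREG window held none of the 4 motifs. AREG held 1 CRE, which began 65 bases before the start, and 1 GC box. Of all 35116 windows of this length in the table, 42.6% held a GC box, 1.65% a CRE, 6.57% an AP-1 match and 5.92% an E2F match. G and C made up 73.6% of the EGFR window, 76.4% of HBEGF, 65.2% of AREG and 58.0% of EREG. The table lists another EGFR start, with 38.8% G and C and 2 AP-1 matches before it. TGFA, which did not rise in HepG2/metR, had 3 GC boxes before the first of its 2 listed starts. Whether any motif goes with the levels was not tested. A match says nothing of binding.

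Of the 5 other ligands of the family 1 was kept, NRG1, which was also the 1 past 2-fold in HepG2/metR, and 0 passed 1.5-fold with oxamate. The shares of all genes kept, to be read beside this list and those that follow, were 16.6% higher and 17.6% lower in HepG2/metR, and 4.3% higher and 3.82% lower with oxamate. NRG1, neuregulin 1, a ligand of ERBB3 and ERBB4, had 0.143 FPKM in HepG2/wild, 68.6 in HepG2/metR and 46.1 with oxamate. Its difference of 5.93 in HepG2/metR was matched or passed by 40 genes kept, itself included. In HepG2/metR it was 2.26 times HBEGF, while ERBB3 was low and ERBB4 near 0. Its oxamate difference, -0.56, did not reach 1.5-fold. The other 4, EPGN, NRG2, NRG3 and NRG4, had a mean under 1 FPKM.

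Of the 10 genes of ligand shedding, 9 were kept, and 0 were past 2-fold higher and 2 past 2-fold lower in HepG2/metR. TIMP3, an inhibitor of the sheddase ADAM17, had 25.1, 4.01 and 3.78 FPKM, a difference of -2.38. FURIN, a proprotein convertase, had 54.2, 13.1 and 18.1 FPKM, a difference of -1.97. With oxamate 1 gene passed 1.5-fold, RHBDF1, a partner of ADAM17, at 3.21, 4.40 and 7.36 FPKM and a difference of 0.63. The medians of the genes kept were -0.13 and 0.04, beside 0.02 and 0.02 over all genes kept.

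Of the 27 adaptors and kinases downstream, all were kept, 1 was at least 2-fold higher and 2 lower in HepG2/metR, and 0 passed 1.5-fold with oxamate. HRAS had 16.97, 40.7 and 29.8 FPKM, a difference of 1.21. SRC had 33.96, 8.06 and 9.08 FPKM, a difference of -1.95. PLCG1, phospholipase C gamma, had 49.4, 23.8 and 32.4 FPKM, a difference of -1.02 that fell short of 2-fold under upper-quartile and equal-total scaling. The medians were -0.27 in HepG2/metR and 0.11 with oxamate.

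Of 17 negative regulators of the pathway, 1 was at least 2-fold higher and 4 lower in HepG2/metR, beside 16.6% and 17.6% of all genes kept, with a median of 0.13. SPRY1, a Sprouty inhibitor of RAS-ERK signalling, had 15.4, 0.158 and 0.479 FPKM, a difference of -3.82. For SPRY4 the levels were 17.7, 4.30 and 3.55 FPKM, a difference of -1.82. DUSP6, a phosphatase of ERK, had 26.3, 9.24 and 6.13 FPKM, a difference of -1.41. ERRFI1, an inhibitor of the EGFR kinase, had 94.1, 40.4 and 23.9 FPKM, with differences of -1.20 and -0.73. SPRED1, another inhibitor of RAS-ERK signalling, was the one past 2-fold higher, at 4.10, 12.3 and 17.1 FPKM, a difference of 1.39. DUSP4, at 0.76, also passed with a pseudocount of 0.1 (1.42) or none (1.58), and SPRY1 passed 1.5-fold higher with oxamate under both. SPRY2 was at 0.90 in HepG2/metR, short of 2-fold, but its plain FPKM ratio was 2.04. The count higher in HepG2/metR was 3 under either other pseudocount and 2 under upper-quartile scaling. With oxamate 3 of 17 were past 1.5-fold higher and 2 lower, with a median of 0.27. Those higher were DUSP4 at 0.65, SOCS5 at 0.63 and CBL, a ubiquitin ligase of EGFR, at 0.60, which fell just short under upper-quartile scaling, and those lower were ERRFI1 and DUSP5, at -0.61. Under equal totals ERRFI1 was at -0.57 and DUSP5 at -0.47, short of 1.5-fold, but relative to the shift of all genes they were at -0.71 and -0.62.

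Of 15 ERK-induced genes, 4 were at least 2-fold higher and 2 lower in HepG2/metR, beside 16.6% and 17.6% of all genes kept, with a median of -0.02 over the 13 of the list that were kept. FOSL1, a subunit of AP-1, had 11.5, 192 and 115 FPKM, a difference of 3.95. ATF3 was 1.47 higher, EPHA4 1.46 and EPHA2 1.18. ETV4, a transcription factor of the ETS family, had 91.3, 19.8 and 15.8 FPKM, a difference of -2.15, and IER3 was at -1.21. With oxamate 0 were past 1.5-fold higher and 4 past it lower, beside 4.3% and 3.82% of all genes kept, and 12 of the 13 kept were below 0, where 45.6% of all genes kept were, with a median of -0.36 beside 0.02 over all genes kept. EGR1, an early-response transcription factor, had 6.28, 5.50 and 0.755 FPKM, a difference of -1.89 with oxamate. IER2 was at -0.79, FOSL1 at -0.74 and MYC at -0.67. Under equal totals 2 of the 4, FOSL1 and MYC, fell short of 1.5-fold, but were at -0.71 and -0.64 relative to the shift of all genes. Under that scaling 10 of the 13 were below 0, beside 28.4% of all genes kept, EPHA2 turned from -0.11 to 0.07 and PHLDA1 from -0.01 to 0.16, and the list median was -0.20 beside 0.17 over all genes kept. The SPRY and DUSP genes, listed above as negative regulators, are not in this list. On the deposited scale their oxamate differences went both ways. DUSP4 was at 0.65, SPRY1 at 0.35 and SPRY2 at 0.27, while SPRY4 was at -0.22, DUSP6 at -0.52 and DUSP5 at -0.61. The fall of the list is thus not read as a fall of all ERK output.

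**Figure D5:**
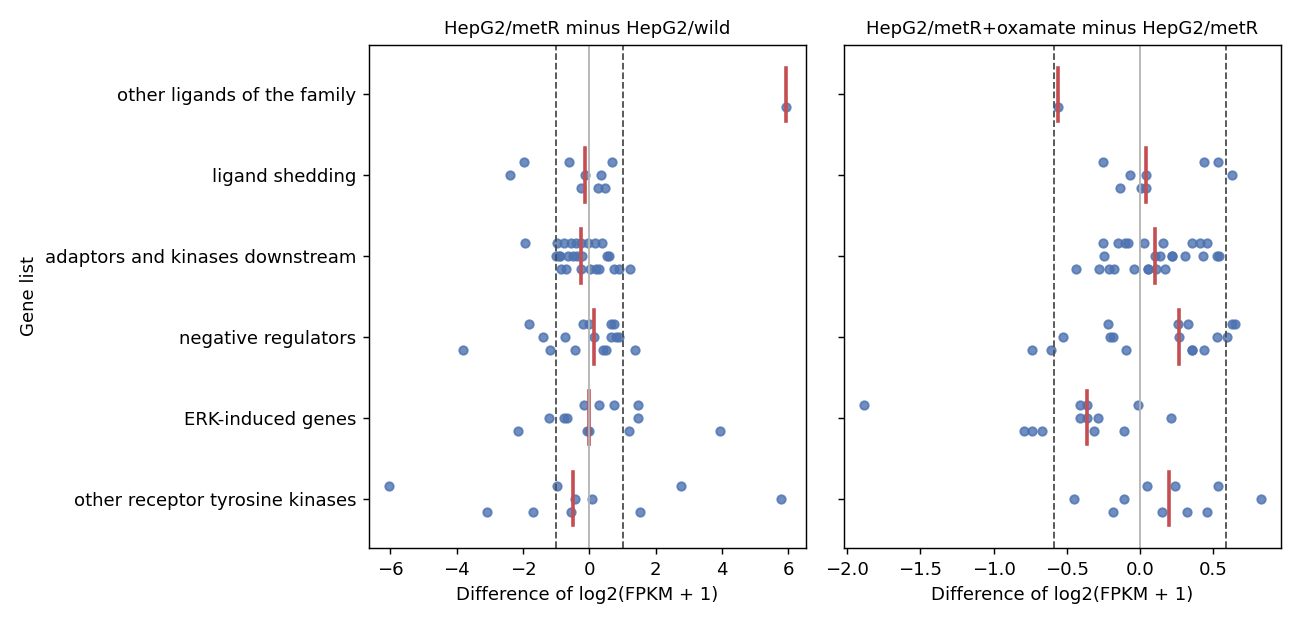
Differences in log2(FPKM + 1) (x axis) of the genes kept in 6 lists (y axis; 1 point per gene), for HepG2/metR minus HepG2/wild (left) and oxamate minus HepG2/metR (right), with red bars at list medians and dashed lines at 2-fold and 1.5-fold. With oxamate the ERK-induced genes have the lowest median of the lists with more than 1 gene kept, at -0.36.

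The genes nearest in pattern to each of the 6 kept were found by the Euclidean distance between the 3 log2 values, each centred on its mean, among 12092 genes, over 3 libraries. Close to EGFR lay ENPP4, at a distance of 0.05 and with 0.0820, 8.07 and 12.5 FPKM. Nearest to HBEGF were PEAR1 and PTRF, which codes for a caveolar coat protein and had 34.9, 463 and 440 FPKM. EREG lay nearest to TAGLN2 and to SOCS3, a cytokine-signalling inhibitor with 0.388, 17.5 and 12.0 FPKM. For ERBB3 the nearest were ARHGEF3 and SEC23A, for ERBB2 DIS3L2 and ZNF385A, and for TGFA BAZ2B and SLC44A5. Within 0.25 lay 50 genes for EGFR, 55 for HBEGF, 33 for EREG, 129 for ERBB3, 378 for TGFA and 1421 for ERBB2.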

How the data were processed

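The values were deposited by the authors as 1 table per library, on a log2 scale, and have the form log2(FPKM + 1): 2 to the power of the value, minus 1, had at most 6 significant digits in 100% of values above 1. The submitters' processing notes name STAR 2.5.1b, FastQC 0.11.5, Cufflinks 2.2.1 and the build hg19. The 3 libraries were grouped by their titles. No further scaling was applied, and values of 2 libraries were subtracted to give the log2 change, with a pseudocount of 1. Limits were 2-fold for HepG2/metR against HepG2/wild and 1.5-fold for oxamate, after the study's methods. Genes with a mean of at least 1 FPKM (12210) gave the background. Of the symbols, 28 had turned into dates and were not used by name. The number of reads is unknown, and no interval was computed.

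Named are the 10 members, list genes past either limit, the 2 genes nearest in pattern to each member kept (no small RNAs; 1 of these is not reported here), and neighbours of the chromosome 4 cluster. The members and lists were chosen with earlier results of these data known. Other pseudocounts, scalings, filters and limits were tried. Promoter windows and gene order are from RefSeq (GRCh38.p14), and proteins were not analysed here. The calculation was tested on simulated data. Python 3.11, numpy 2.4.6 and matplotlib 3.10.9 were used.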

Additional observations from a re-analysis of the deposited data

How the results depend on the processing

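The counts of genes of the family past 2-fold in HepG2/metR, 3 higher and 1 lower, were the same under the 3 other scalings and, for the 7 of 10 genes with a value, without a pseudocount. With a pseudocount of 0.1 the higher count was 4, through BTC at 1.15. At 1.5-fold the lower count was 2. With oxamate, 0 genes became 1 with a pseudocount of 0.1 (TGFA at 0.66), 4 without a pseudocount (ERBB4 1.97, AREG 0.97, BTC 0.78, TGFA 0.67) and 2 under equal totals (EGFR 0.70, TGFA 0.72), all higher. Counted once per gene, comparison and setting, 8 of the member differences crossed their limit and 89 kept their side of it. AREG could not be summed with AREGB, which was not analysed here.

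Among all genes, no filter gave 8.31% higher and 9.60% lower in HepG2/metR, and 2.28% higher and 1.91% lower with oxamate, because more genes under the pseudocount are counted. The share higher with oxamate was 8.34% with a pseudocount of 0.1, 9.10% with none and 9.70% under equal totals, where the share lower was 1.57%. The share higher in HepG2/metR and lower with oxamate was 0.500% under equal totals and 0.499% with no filter.

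Counted once per setting, 23 of the list counts moved by more than 1.5 times and 97 did not. By the same counting, 42 differences of named list genes, cell type markers or genes near the chromosome 4 cluster crossed their limit. Some of these genes crossed it under several settings and are counted each time. Other ligands: 2 higher in HepG2/metR with a pseudocount of 0.1, 1 lower with oxamate without one, and a median of 0.042 in HepG2/metR with no filter. Ligand shedding: 2 higher with oxamate under either other pseudocount and 3 under equal totals. Adaptors and kinases: 2 higher in HepG2/metR under upper-quartile scaling, 1 lower under that and equal totals, 4 lower without a pseudocount, and with oxamate 2 higher under either other pseudocount and 4 under equal totals. Negative regulators: 3 higher in HepG2/metR under either other pseudocount and 2 under upper-quartile scaling, and with oxamate 5 higher and 0 lower under equal totals. ERK-induced genes: 2 lower with oxamate under equal totals. Other receptor tyrosine kinases: 5 lower in HepG2/metR under either other pseudocount, and with oxamate 2 higher with 0.1, 4 with none and 3 under equal totals. Apart from the shift of all genes under equal totals, the cause was not tested. No called difference changed sign. No paired analysis was possible because each group has 1 library.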

Other observations

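Other receptor tyrosine kinases, 16 genes of which 10 were kept, had 3 at least 2-fold higher and 3 lower in HepG2/metR, beside 16.6% and 17.6% of all genes kept, and a median of -0.49. AXL, the receptor for GAS6, had 3.22 FPKM in HepG2/wild, 230.9 in HepG2/metR and 214.6 with oxamate, a rise of 5.78 on the log2 scale. MET, the receptor for hepatocyte growth factor, had 19.2, 56.9 and 63.2 FPKM, a rise of 1.52. KIT was listed at 0 in HepG2/wild and had 5.79 and 7.03 FPKM in the others. Of the receptors for fibroblast growth factors, FGFR4 had 126, 13.99 and 12.2 FPKM, a difference of -3.08, and FGFR3 had 78.7, 0.206 and 0.2498 FPKM, a difference of -6.05. FGFR1 had 32.9, 23.9 and 17.2 FPKM, and its difference of -0.44 did not pass 2-fold. INSR, the insulin receptor, had 6.75, 1.40 and 2.01 FPKM, a difference of -1.69. With oxamate 1 of the 16, PDGFRB, passed 1.5-fold, at 3.43, 3.66 and 7.26 FPKM and a difference of 0.83. In HepG2/metR the level of AXL was thus above those of EGFR, ERBB2 and ERBB3.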
